A study of Mus musculus with 3 samples.

Results

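The 114 genes described here encode mitogen-activated protein (MAP) kinases and the kinases above and below them, dual-specificity phosphatases (Dusp), protein tyrosine phosphatases (Ptpn and Ptpr), and the RasGRP, Spred and Sprouty regulators of Ras. They were taken by symbol from the array's probe annotation out of 16390 named genes, by a pattern that uses no measured value, though the group was picked with earlier results of these data known. The pattern also took in 2 genes named for a SPRY protein domain, Spryd3 and Spryd4, which are kept as their own group, and 3 members now carry other symbols (Tab1, Tab2 and Lamtor3). Map3k5, Dusp5 and Rasgrp3 had no named probe and were not analysed here.

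RNA came from 3 cell populations of IL-10 Venus mice, a reporter strain whose fluorescent Venus protein marks cells that express Il10. They were splenic B220+ cells, splenic Venus+ CD138hi cells, and Venus+ CD138hi cells taken from bone marrow, called splenic and marrow Venus+ cells from here on. B220 is a form of CD45 carried by B cells, and CD138 (syndecan-1) marks plasma cells. All cells were freshly sorted with no treatment in the labels, and no source used here gives the genetic background, age or number of mice. Each population was read on 1 single-colour array, so there are 3 arrays and no replicates. The Venus+ cells are selected for reporter fluorescence and for CD138 together, the B220+ cells for neither, and the bone marrow cells have no B220+ counterpart from the same organ.

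In B cells the Ras to MAP kinase cascade carries signals from the antigen receptor and from Toll-like receptors. RasGRP proteins load Ras with GTP, kinases of the MAP4K, MAP3K and MAP2K tiers pass the signal on, and ERK, JNK and p38 kinases phosphorylate transcription factors and further kinases. The MAP kinase phosphatases, a subset of the Dusp proteins, remove the activating phosphates, and several of their genes are themselves switched on by the pathway. Tyrosine phosphatases act higher up. CD45, encoded by Ptprc, activates Src-family kinases, and SHP-1, encoded by Ptpn6, is recruited by inhibitory receptors.

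Values are normalized signals, in arbitrary units, after subtraction of the blank-spot level and scaling of each array to a median detected signal of 25. Higher and lower mean a difference of at least 2-fold in a gene detected on both arrays. The error after ± is the spot error of a log2 ratio, made from blank and control spots of the same arrays, not a spread between samples. No test could be made. A member detected on 1 array of a pair has a lower bound as its fold, against the lowest detected signal of the other array or the dim probe's own signal, whichever is higher. Of the 114 members, 92 were detected in B220+, 94 in splenic Venus+ and 90 in marrow Venus+ cells, 85 on all 3 arrays and 16 on none. Of 7 plasma cell marker genes detected on both spleen arrays, 7 were higher in Venus+ cells, and of 8 B cell markers 8 were lower (against 15.7% and 16.5% of all genes). Genes listed as markers of other cell types were also detected, and which cells of a sort carried them was not tested. The summed signal of 14 T cell markers was 441 in B220+, 1699 in splenic Venus+ and 1670 in marrow Venus+ cells, most of it from Cd2 in B220+ cells and from Cd28 and Cd247 in the Venus+ cells, with Cd3e, Cd3g and Trat1 not detected in B220+ and Thy1 and Zap70 not detected in marrow Venus+ cells. The summed signal of 12 neutrophil markers was 5101, 131 and 559 in the same order, with only Prtn3 not detected in B220+ cells and with S100a9, Camp, Ltf, Mpo, Prtn3, Mmp8 and Csf3r not detected in splenic Venus+ cells. Most of it came from S100a8 and S100a9 in B220+ cells and from Ly6g in Venus+ cells. Ly6g rose (38.9, 99.6 and 334), while of the markers detected on both arrays 4 were lower in splenic and 6 in marrow Venus+ cells, and 1 and 2 were higher. The summed signal of 8 basophil, mast cell and eosinophil markers was 23.4, 103 and 227, with Fcer1a, Epx and Siglecf detected on no array, Kit and Gata2 not detected in B220+ cells and Ms4a2 not detected in Venus+ cells. For 7 NK cell markers the sum was 34.4, 218 and 401, most of it from Gzmb. Of these, Klrk1 was detected on no array and Ncr1 in B220+ cells alone. For 9 monocyte and macrophage markers it was 83.9, 138 and 279, most of it in Venus+ cells from Cd68. Of these, Cd14 was detected on no array and Adgre1, Ccr2 and Cd163 in B220+ cells alone. In sorted populations, fewer cells of a type and less RNA per cell cannot be told apart.

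In splenic Venus+ cells, as many members were higher as lower than in B220+ cells when all detected signals were kept. Of 88 members detected on both arrays, 17 were at least 2-fold higher (19.3%, against 15.7% of all genes) and 17 at least 2-fold lower (19.3%, against 16.5% of all genes), with 54 in between. The median log2 ratio was -0.04 for the members and -0.02 for all genes. The balance moved with the processing. For signals of at least 10 on both arrays, 6 of 64 members were higher and 15 lower. Over all genes the higher share of calls then went from 48.84% to 34.21%. Quantile normalization gave 10 members higher and 13 lower. A further 6 members were detected only in the Venus+ cells, 4 of them past a bound of 2-fold (3.96% of all genes), and 4 only in the B220+ cells, 0 of them past it (1.15% of all genes). Ratios ran from -3.11 for Rasgrp2 to 2.99 for Dusp1.

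In marrow Venus+ cells, against the same B220+ array, more members were lower than higher. Of 85 members detected on both arrays, 17 were higher (22.4% of all genes were) and 30 were lower (35.3%, against 30.7% of all genes), and the median log2 ratio was -0.37, or -0.13 relative to that of all genes. A further 5 members were detected only in marrow Venus+ cells, 5 of them past the 2-fold bound (5.08% of all genes), and 7 only in B220+ cells, 2 of them past it (4.36% of all genes). The split moves with the scaling. With all arrays scaled on the probes they share, 19 members were higher and 27 lower, and over all genes the higher share of those called went from 42.2% to 53.95%. The member shares lay near those of all genes in both comparisons, which use 1 common B220+ array, so what follows describes single members and roles.

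**Figure D1:**
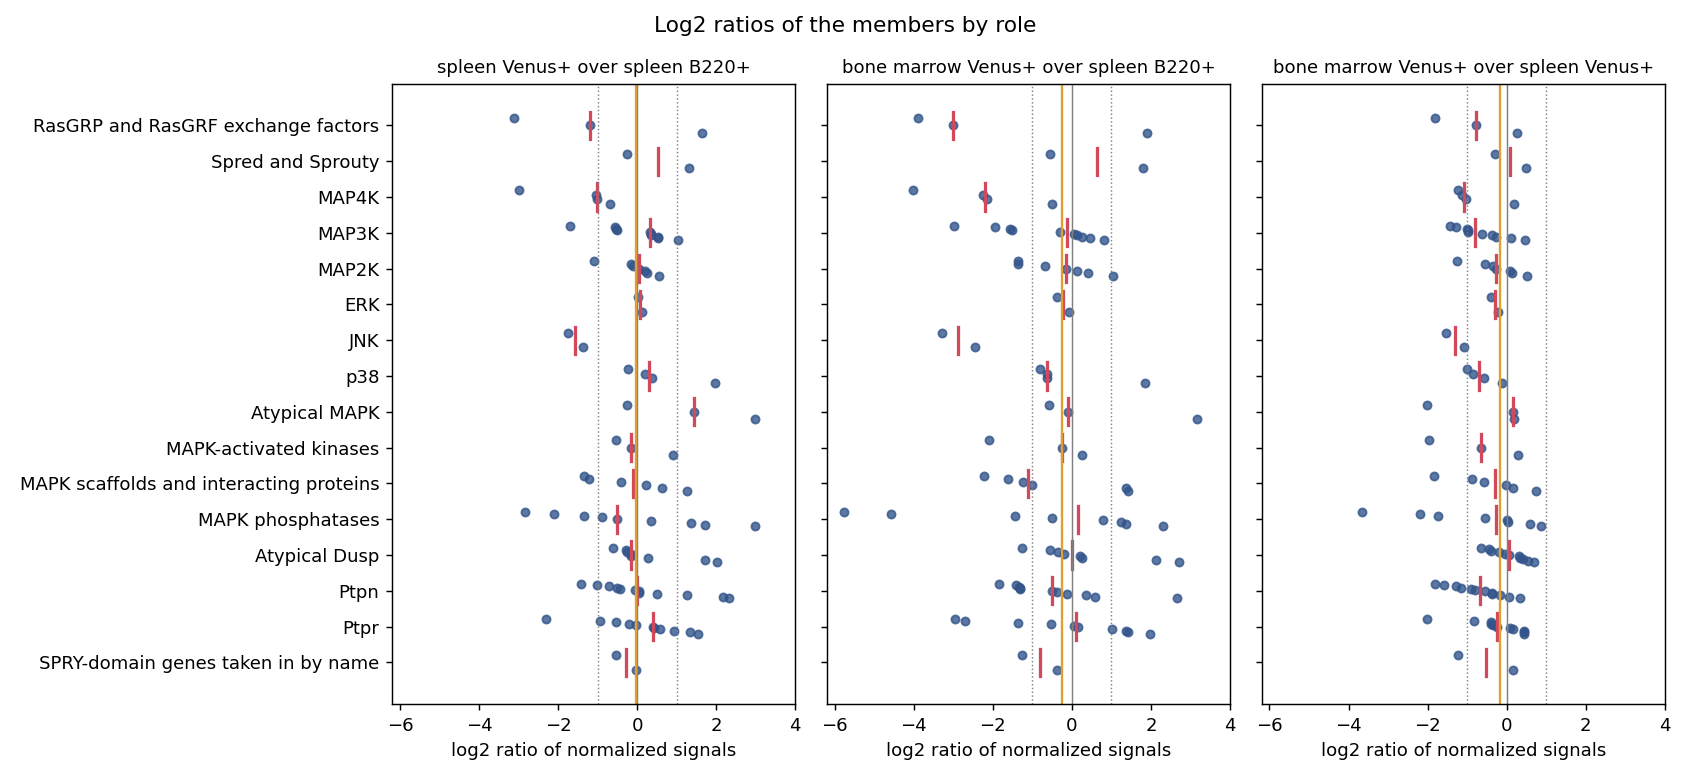
Log2 ratio of each member detected on both arrays of a pair (dots), grouped by role, with the role median as a red bar, the median of all genes as a gold line and 2-fold as dotted lines. The MAP4K and JNK genes lie below 0 against B220+ cells, while MAP kinase phosphatase genes spread from -5.76 to 2.99.

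At the entry to the cascade, 2 of the 3 detected RasGRP genes were lower in both Venus+ populations. Over all genes, 16.5% were lower in splenic and 30.7% in marrow Venus+ cells. Rasgrp2, a calcium- and diacylglycerol-regulated exchange factor that acts mainly on Rap1, had signals of 677 in B220+, 78.6 in splenic and 45.8 in marrow Venus+ cells. It was the member with the lowest ratio in the spleen comparison, 8.61-fold lower (log2 ratio -3.11 ± 0.14), and 14.8-fold lower in the bone marrow cells (-3.89 ± 0.14). Its local background on the B220+ array was 1.11 times its spot signal, and with that background entered in the correction its ratio turned positive. Rasgrp1, the diacylglycerol-regulated Ras activator of lymphocytes, gave 25.1 in B220+, 10.9 in splenic and 3.11 in marrow Venus+ cells, a log2 ratio of -1.20 ± 0.18 in spleen and -3.01 ± 0.56 in marrow Venus+ cells. Both genes therefore stepped down from B220+ through spleen to marrow Venus+ cells, although Rasgrp1 ended close to the limit of detection. On the marrow array the local background of Rasgrp1 was 1.06 times its spot signal. Rasgrp4, an exchange factor best known from mast cells, was dim and opposite, at 2.11 in B220+, 6.52 in splenic and 7.89 in marrow Venus+ cells. Of the basophil, mast cell and eosinophil markers, Mcpt8 was at 17.5, 42.99 and 143 in that order. Cpa3 was higher in both Venus+ populations, and Kit and Gata2 were detected only there. Ms4a2 went the other way, at 4.13 in B220+ cells and not detected in Venus+ cells. Fcer1a, Epx and Siglecf were detected on no array. The part of such cells in the values of Rasgrp4 was not tested. Rasgrf1 was not detected on any array.

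Of the 7 Spred and Sprouty genes, feedback inhibitors of Ras signalling, few gave a signal. Spred1, Spred2, Spry1 and Spry2 were detected on none of the arrays. Spry4 was detected in B220+ cells alone, at 1.51, just over the lowest detected signal of 1.34. Spry3 was detected on all arrays and stayed within 2-fold (12.9, 10.7 and 8.77 in B220+, splenic Venus+ and marrow Venus+ cells). Spred3 was the exception, at 3.56 in B220+, 8.86 in splenic and 12.4 in marrow Venus+ cells, or 2.49-fold and 3.48-fold higher than in B220+ cells. For the undetected genes these arrays give no order between populations.

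Among the MAP4K genes, which act above the MAP3K tier, 3 of 4 were lower in both Venus+ populations than in B220+ cells (against 16.5% of all genes in spleen and 30.7% in marrow). Map4k1 encodes HPK1, a blood-cell kinase known as a brake on antigen receptor signalling. Its signals were 1028 in B220+, 503 in splenic and 230.4 in marrow Venus+ cells, so it remained bright while being 2.04-fold and 4.46-fold lower than in B220+ cells. Map4k5 showed the widest gap of the tier, with 156 in B220+, 19.7 in splenic and 9.65 in marrow Venus+ cells and log2 ratios of -2.98 ± 0.15 and -4.01 ± 0.22. Map4k3 gave 43.5 in B220+, 21.6 in splenic and 9.18 in marrow Venus+ cells, with log2 ratios of -1.01 ± 0.15 and -2.24 ± 0.23. In spleen, Map4k1 and Map4k3 sat at the 2-fold line within their spot error, and both were under 2-fold with the detection limit set at 3 SD. Map4k4 stayed within 2-fold, at 64.5, 40.3 and 45.8 in the same order.

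The MAP3K genes were less uniform. Of 10 detected on both spleen arrays, 1 was higher and 1 lower in Venus+ cells (against 15.7% and 16.5% of all genes). In marrow Venus+ cells 0 were higher and 4 lower than in B220+ cells (against 22.4% and 30.7% of all genes). Map3k8 encodes Tpl2, the kinase that links Toll-like receptors to ERK, and had signals of 66.6 in B220+, 20.5 in splenic and 8.35 in marrow Venus+ cells. That is 3.25-fold lower in spleen (-1.70 ± 0.15) and 7.97-fold lower in marrow Venus+ cells (-2.99 ± 0.24). Map3k7, which encodes TAK1, a kinase shared by the p38, JNK and NF-kappaB pathways, was dim at 5.18 in B220+, 10.6 in splenic and 5.41 in marrow Venus+ cells. Its spleen ratio of 1.03 ± 0.26 stood at the 2-fold line and dropped under it when arrays were scaled on shared probes. Map3k1, Map3k3 and Map3k4 were the other 3 members lower in bone marrow, with log2 ratios of -1.95 ± 0.67, -1.51 ± 0.14 and -1.55 ± 0.16. The remaining 5 detected genes of the tier stayed within 2-fold in all comparisons, apart from Map3k11 in marrow with shared probes (1.10), and Map3k2 and Map3k9 were not detected.

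TAK1's partners differed from it. Tab2, an adaptor that binds ubiquitin chains and TAK1, was at 364 in B220+, 143 in splenic and 78.05 in marrow Venus+ cells, 2.56-fold lower in spleen and 4.67-fold lower in marrow Venus+ cells than in B220+ cells. Its local background on the splenic Venus+ array was 1.01 times its spot signal. With the local background entered in the correction, the marrow ratio of Tab2 was under 2-fold and its spleen ratio was not (-1.24). Tab1, the activating subunit of TAK1, was similar on both spleen arrays (10.996 and 12.8) and was 3.61 in marrow Venus+ cells. Lamtor3, a scaffold for MEK1 and ERK on endosomes, was 2.31-fold and 2.34-fold lower than in B220+ cells and alike between the Venus+ populations (84.8 and 83.5), and its marrow ratio was under 2-fold with shared probes (-0.94). The JNK scaffolds went the other way. Mapk8ip3 was 2.39-fold and 2.66-fold higher than in B220+ cells, and Mapk8ip1 was 2.60-fold higher in marrow Venus+ cells and within 2-fold in spleen. Mapk8ip2 was detected in splenic Venus+ cells alone, at 1.75, near the lowest detected level, and the remaining scaffold gene stayed within 2-fold.

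In the MAP2K tier the 2 kinases that phosphorylate ERK parted. Map2k1 (MEK1) gave 441 in B220+, 209 in splenic and 173 in marrow Venus+ cells, while Map2k2 (MEK2) gave 301 in B220+, 361 in splenic and 398 in marrow Venus+ cells. Map2k1 was thus 2.11-fold and 2.55-fold lower in the Venus+ populations, and Map2k2 was 1.20-fold and 1.32-fold higher, inside the 2-fold limits. The spleen ratio of Map2k1 (-1.08 ± 0.14) was close to that limit, and with quantile normalization both ratios were under it (-0.82 in spleen and -0.86 in marrow). Of the remaining 5 genes of the tier, Map2k3, Map2k4 and Map2k6 stayed within 2-fold in all comparisons. Map2k5, the activator of ERK5, was 2.58-fold lower in marrow Venus+ than B220+ cells, and Map2k7, an activator of JNK, was 2.07-fold higher.

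The MAP kinases themselves showed different patterns by branch. Mapk3, which encodes ERK1, was nearly level at 41.5 in B220+, 45.5 in splenic and 39.3 in marrow Venus+ cells, as was Mapk7 (ERK5) at 15.8, 16.1 and 12.2 in the same order. Both detected JNK genes stepped down across the populations. Mapk9 (JNK2) was at 199 in B220+, 76.6 in splenic and 36.3 in marrow Venus+ cells, with log2 ratios to B220+ cells of -1.38 ± 0.14 and -2.46 ± 0.14. Mapk8 (JNK1) was at 32.6 in B220+, 9.77 in splenic and 3.35 in marrow Venus+ cells, with -1.74 ± 0.19 and -3.28 ± 0.52. The bone marrow signal of Mapk8 was close to the lowest detected signal of 2.35, so its size there is loose. On the B220+ array the local background of Mapk8 was 0.9975 times its spot signal. With the local background entered in the correction, its log2 ratio was -0.02 in spleen and turned positive in marrow. Mapk10 (JNK3), a mainly neuronal gene, was not detected by either of its probes.

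Of the p38 genes, Mapk14 (p38 alpha) had signals of 25.6 in B220+, 29.6 in splenic and 16.6 in marrow Venus+ cells and stayed within 2-fold in all 3 comparisons, as did Mapk11 and Mapk13. Mapk12 (p38 gamma) was the only p38 gene past 2-fold, at 32.96 in B220+, 128 in splenic and 119 in marrow Venus+ cells, or 3.89-fold and 3.61-fold higher than in B220+ cells. The atypical kinases Mapk4 (ERK4) and Mapk6 (ERK3) act on Mapkapk5. Mapk4 rested near the detection limit in B220+ cells, and its signals were 4.10 in B220+, 32.4 in splenic and 36.99 in marrow Venus+ cells, with log2 ratios of 2.98 ± 0.28 and 3.17 ± 0.27, the highest member ratio in the bone marrow comparison. Mapk6 was high in splenic Venus+ cells alone, at 17.2 in B220+, 46.9 in splenic and 11.5 in marrow Venus+ cells. Mapkapk5 varied little (259.6, 178 and 218 in that order), as did the atypical kinase gene Mapk15.

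The p38 target kinases Mapkapk2 and Mapkapk3 control the stability of cytokine mRNAs. Mapkapk2 was at 11.1 in B220+, 20.8 in splenic and 13.4 in marrow Venus+ cells and within 2-fold in all comparisons. Mapkapk3 was alike on both spleen arrays and dim in bone marrow, at 47.7 in B220+, 43.2 in splenic and 11.1 in marrow Venus+ cells, which is 4.30-fold lower in marrow Venus+ than B220+ cells (-2.10 ± 0.20). With a normexp background on the spot median, an offset-based correction added after seeing the data that pulls dim signals together, the spleen ratios of Rasgrp1, Map4k3, Map3k7, Map3k8, Mapk4, Mapk6 and Mapk8 were under 2-fold. Under the same correction the marrow ratios of Rasgrp1, Map4k3, Mapk4, Mapk8 and Mapkapk3 were under 2-fold, and those of Rasgrp2, Map4k5 and Mapk9 were not. With the local background also entered, Map4k5 was under 2-fold in both Venus+ populations (-0.18 in spleen) and Rasgrp2 turned positive. Mapk9 was then under 2-fold in spleen (-0.93) and not in marrow.

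**Figure D2:**
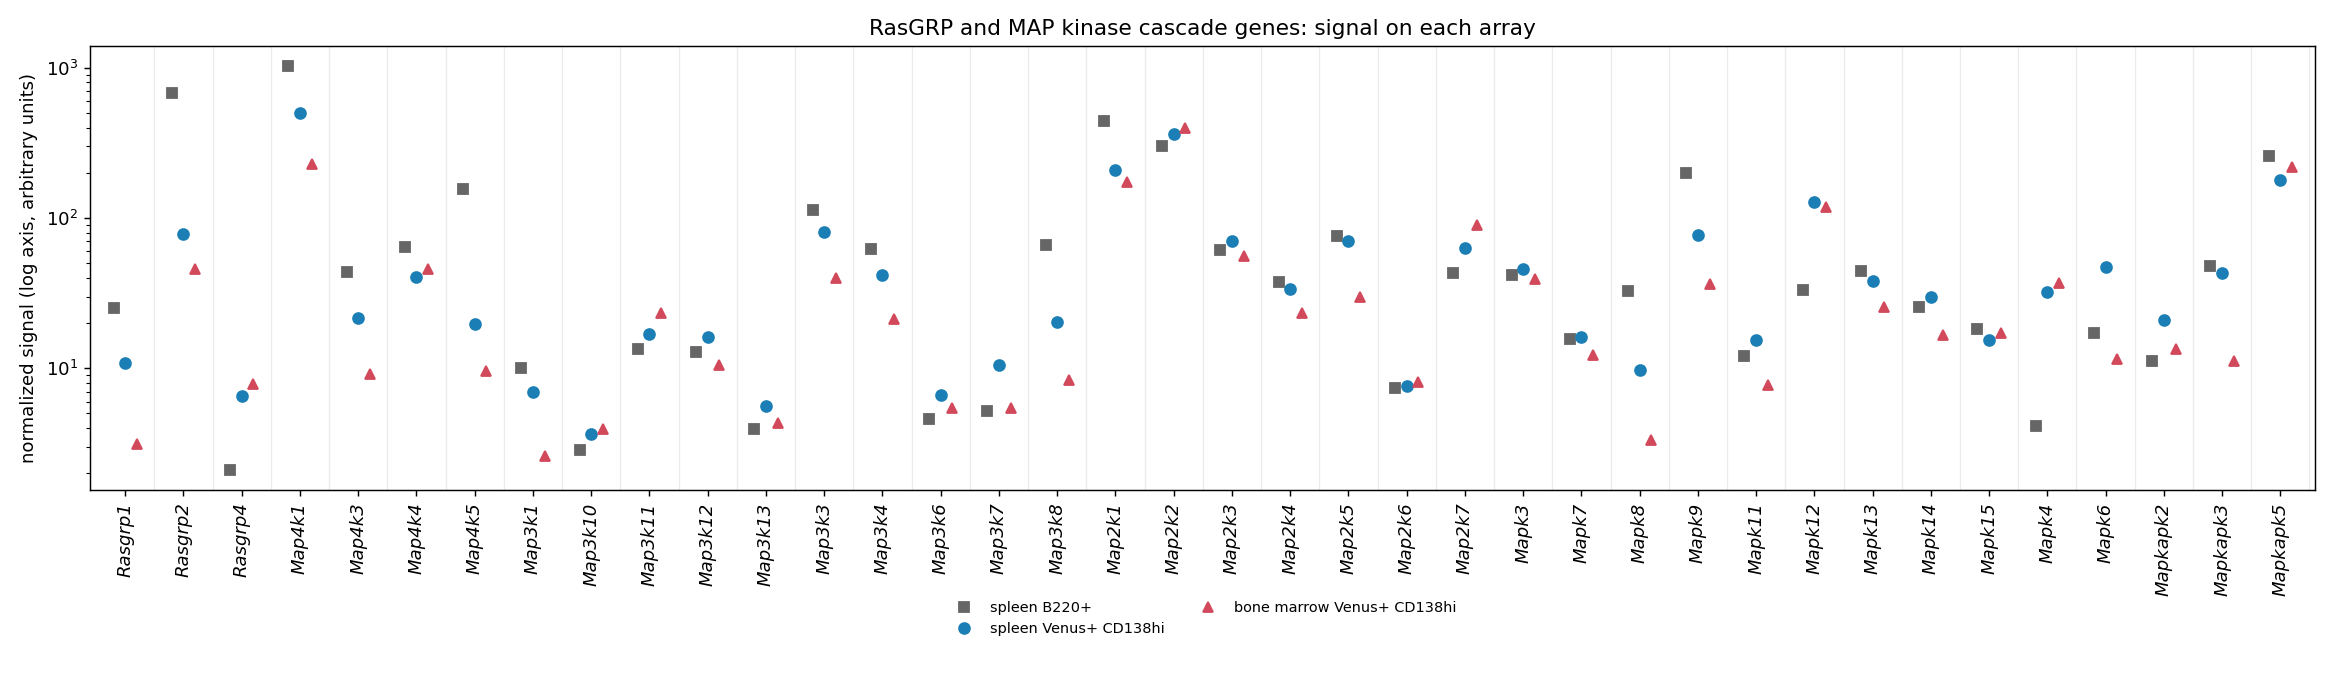
Normalized signal (log axis, arbitrary units) of RasGRP and kinase-tier members on each array: grey squares for spleen B220+, blue circles for splenic Venus+ and red triangles for marrow Venus+ cells. Map4k5 and Mapk9 step down from B220+ to marrow Venus+ cells, Mapk4 is high in both Venus+ populations and Mapk6 in the spleen one alone.

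The MAP kinase phosphatases held the widest range of any role. Of 9 detected on both spleen arrays, 3 were higher, 3 lower and 3 within 2-fold in Venus+ cells (against 15.7% of all genes higher and 16.5% lower). The promoters of 4 of them, whose signals separated the populations most or moved down together, are shown for the sites known to mediate cyclic AMP and immediate-early induction. They are RefSeq sequences of GRCm38.p6 and run from 250 bases before to 50 bases after the transcription start, 5′ to 3′ on the gene's strand. Capitals mark TGACG, read on either strand, and its full palindrome TGACGTCA.
Dusp1 (chr17:26508423-26508722, minus strand): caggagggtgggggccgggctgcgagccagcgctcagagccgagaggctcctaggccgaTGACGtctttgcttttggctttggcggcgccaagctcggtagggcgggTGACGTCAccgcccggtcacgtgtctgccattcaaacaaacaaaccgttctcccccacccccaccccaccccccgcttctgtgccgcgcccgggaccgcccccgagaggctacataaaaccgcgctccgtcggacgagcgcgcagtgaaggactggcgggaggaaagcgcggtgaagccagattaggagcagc
Dusp2 (chr2:127335909-127336208, plus strand): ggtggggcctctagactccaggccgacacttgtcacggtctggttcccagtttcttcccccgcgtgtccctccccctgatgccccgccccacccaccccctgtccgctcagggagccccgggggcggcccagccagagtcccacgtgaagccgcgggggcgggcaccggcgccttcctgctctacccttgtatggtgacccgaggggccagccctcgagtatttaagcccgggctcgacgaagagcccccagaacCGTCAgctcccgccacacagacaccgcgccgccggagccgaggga
Dusp6 (chr10:99262981-99263280, plus strand): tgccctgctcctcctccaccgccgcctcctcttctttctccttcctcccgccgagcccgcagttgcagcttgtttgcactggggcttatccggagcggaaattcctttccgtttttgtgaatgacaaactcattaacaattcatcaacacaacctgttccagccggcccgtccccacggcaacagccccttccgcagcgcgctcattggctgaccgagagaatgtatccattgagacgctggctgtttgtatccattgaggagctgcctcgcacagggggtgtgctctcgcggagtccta
Dusp10 (chr1:184034131-184034430, plus strand): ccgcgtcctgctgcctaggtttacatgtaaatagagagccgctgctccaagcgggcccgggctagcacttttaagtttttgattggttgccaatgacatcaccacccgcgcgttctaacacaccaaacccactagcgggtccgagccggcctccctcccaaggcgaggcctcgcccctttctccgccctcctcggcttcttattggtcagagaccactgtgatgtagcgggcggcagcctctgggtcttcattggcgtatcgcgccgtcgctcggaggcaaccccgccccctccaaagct
The Dusp1 window holds 1 palindrome TGACGTCA, starting at base 108 of the window, and TGACG at base 60. The other 2 matches to TGACG, at bases 108 and 111, lie in the palindrome itself, 1 on each strand. The Dusp2 window holds 1 TGACG, on the reverse strand at base 256, and the Dusp6 and Dusp10 windows hold none.

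The same search over all RefSeq mouse promoters of this length, both strands read, puts those matches in proportion. TGACGTCA was in 1.79% of 32851 promoters and in 6 of 121 promoters of 90 members, and TGACG was in 20.8% and in 44 of 121. TGANTCA, the AP-1 site, was in 7.81% and in 6 of 121, the CArG box in 1.63% and in 2 of 121, and AGNGAAAG, a core of sites bound by Blimp-1, in 8.63% and in 9 of 121. None of these last 3 motifs was in the 4 windows shown. A match is only a string of letters, and no binding was measured here.

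Dusp1 encodes MKP-1, a nuclear phosphatase of p38 and JNK and an immediate-early gene. Its signals were 10.4 in B220+, 82.2 in splenic and 17.9 in marrow Venus+ cells. It was high in the splenic Venus+ population alone, 7.93-fold over B220+ cells (log2 ratio 2.99 ± 0.17), the highest ratio among members in that comparison. In marrow Venus+ cells its log2 ratio to B220+ cells was 0.79 ± 0.19, under 2-fold, and 1.08 when arrays were scaled on shared probes.

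Dusp2, Dusp6 and Dusp10 were brightest in B220+ cells. Dusp2 encodes PAC-1, a nuclear phosphatase first found in activated lymphocytes, and its signals were 444 in B220+, 104 in splenic and 8.21 in marrow Venus+ cells. Its bone marrow ratio of -5.76 ± 0.25 (54.1-fold lower) was the lowest of all members in any comparison. Dusp6 encodes the cytoplasmic, ERK-selective MKP-3, and its signals were 284 in B220+, 39.5 in splenic and 11.9 in marrow Venus+ cells. The log2 ratios were -2.85 ± 0.14 in spleen and -4.58 ± 0.19 in bone marrow. Dusp10 encodes MKP-5, which acts on p38 and JNK, and was at 78.4 in B220+ and 30.99 in splenic Venus+ cells and not detected in marrow Venus+ cells, at least 33.3-fold lower than in B220+ cells. These 3 genes thus ran in 1 order over the arrays, B220+ above spleen above marrow Venus+ cells.

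Dusp4, which encodes the nuclear MKP-2, ran in the opposite order. Its signals were 31.4 in B220+, 104 in splenic and 156 in marrow Venus+ cells, 3.30-fold and 4.95-fold higher than in B220+ cells. Dusp9 was higher too, but dim (3.37, 8.70 and 8.69 in the same order). Dusp16 (MKP-7), a JNK phosphatase, was 2.70-fold lower in marrow Venus+ than B220+ cells, and Dusp7 stayed within 2-fold throughout. Dusp8 was 2.35-fold higher in marrow Venus+ than B220+ cells through a probe that an updated symbol assigns to it, while its other probe gave a log2 ratio of 0.46. With the normexp background on the spot median, the spleen ratios of Dusp4 and Dusp10 dropped under 2-fold and those of Dusp1, Dusp2 and Dusp6 did not. With the local background entered, the spleen ratio of Dusp1 was under 2-fold too (0.90), and so were the spleen (0.42) and marrow ratios of Dusp4. The spleen ratios of Dusp2 (-1.09) and Dusp6 (-1.92) were smaller but past 2-fold.

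**Figure D3:**
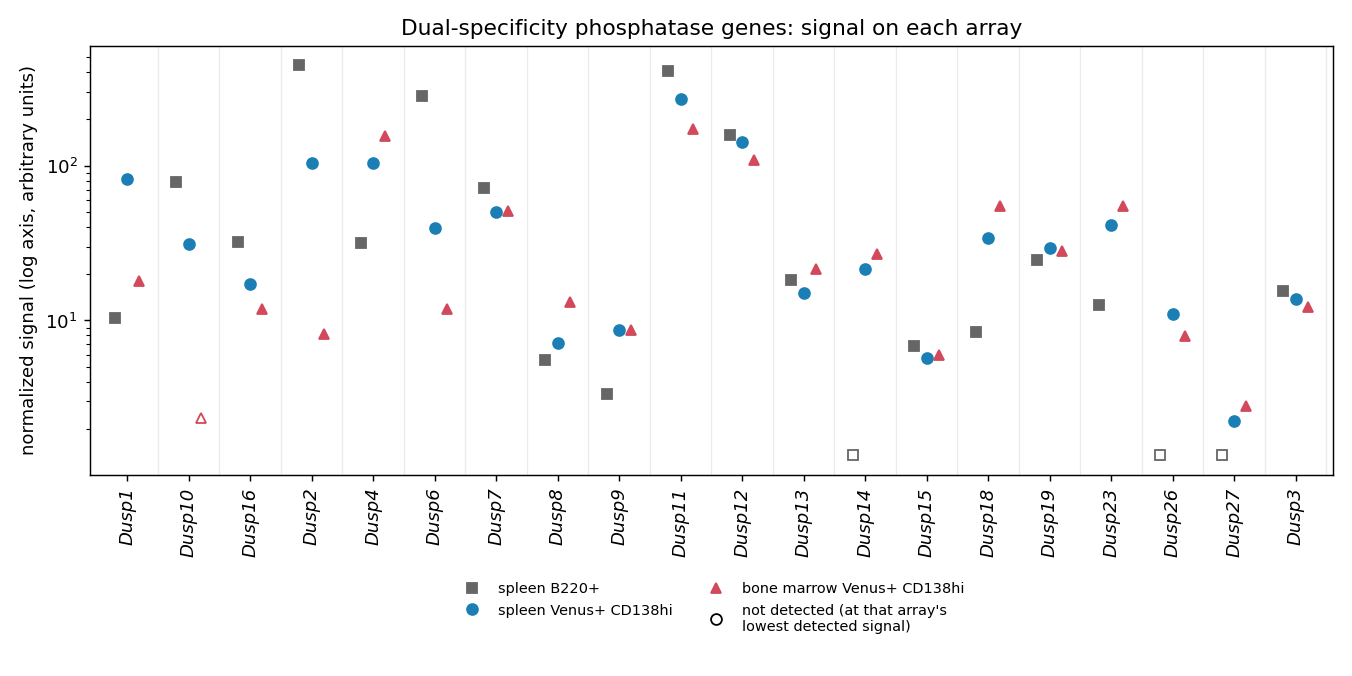
Normalized signal (log axis, arbitrary units) of dual-specificity phosphatase genes on the 3 arrays, MAP kinase phosphatases first and atypical members after them; open symbols mark genes not detected, drawn at that array's lowest detected signal. Dusp2 and Dusp6 descend from B220+ (squares) to marrow Venus+ cells (triangles), Dusp4 and Dusp18 ascend, and Dusp1 peaks in splenic Venus+ cells (circles).

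The 11 atypical Dusp genes encode proteins without the MAP kinase docking domain, most of them small phosphatases. None was lower in splenic Venus+ than B220+ cells among the 8 detected on both arrays, and 2 were higher (against 16.5% and 15.7% of all genes). Dusp18 had signals of 8.43 in B220+, 33.9 in splenic and 54.7 in marrow Venus+ cells and Dusp23 of 12.6 in B220+, 41.2 in splenic and 55.1 in marrow Venus+ cells. Both ascended across the arrays, Dusp18 by 4.03-fold and 6.49-fold and Dusp23 by 3.27-fold and 4.38-fold relative to B220+ cells. With the normexp background on the spot median, the spleen ratios of both and the marrow ratio of Dusp23 were under 2-fold. With the local background entered, the spleen and marrow ratios of both genes were.

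Another 3 atypical members were detected only in the Venus+ populations. Dusp14, studied as a brake on T cell receptor signalling, was at 21.5 in spleen and 26.9 in marrow Venus+ cells, at least 15.99-fold and at least 20.1-fold higher than in B220+ cells. Dusp26 was at 10.9 and 7.99, at least 8.14-fold and at least 5.95-fold higher. Dusp27 was at 2.24 and 2.79, both near the detection limit. Dusp11, an RNA phosphatase, was the 1 atypical member lower in marrow Venus+ than B220+ cells, by 2.39-fold, and it was under 2-fold with shared probes (-0.97). Dusp3, Dusp12, Dusp13, Dusp15 and Dusp19 stayed within 2-fold in all comparisons, though the dim second probe of Dusp12 gave a spleen log2 ratio of 2.47 against -0.15 for its bright probe.

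Of the 17 non-receptor tyrosine phosphatases (Ptpn), 12 were detected on both spleen arrays, 3 higher and 2 lower in Venus+ cells (against 15.7% and 16.5% of all genes). In marrow Venus+ cells 1 was higher and 5 lower than in B220+ cells, of 11 (against 22.4% and 30.7% of all genes). Ptpn6 encodes SHP-1, and its signals were 967 in B220+, 592 in splenic and 267 in marrow Venus+ cells. It was bright everywhere, within 2-fold in spleen (-0.71 ± 0.14) and 3.62-fold lower in marrow Venus+ cells. Its relative Ptpn11, which encodes SHP-2, was dim, not detected in B220+ cells and at 7.69 and 5.94 in spleen and marrow Venus+ cells.

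Ptpn22 encodes the phosphatase LYP (PEP), a partner of Csk that restrains Src-family kinases. Its signals were 101 in B220+, 458 in splenic and 152 in marrow Venus+ cells. It stood out in splenic Venus+ cells, 4.55-fold over B220+ cells (log2 ratio 2.18 ± 0.14), with marrow Venus+ cells within 2-fold of B220+ cells (0.59 ± 0.13, and 1.13, past 2-fold, with quantile normalization). Ptpn22 is also expressed in T cells, and 7 of 11 T cell markers were higher in splenic Venus+ than B220+ cells (against 15.7% of all genes), with the summed signals given above. Their part in the result was not tested.

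Ptpn18, a phosphatase of the PEST family, was dim in B220+ cells and higher in both Venus+ populations, at 4.16 in B220+, 20.8 in splenic and 26.4 in marrow Venus+ cells, with log2 ratios of 2.32 ± 0.28 and 2.67 ± 0.28. Ptpn12 (PTP-PEST), of the same family, went the other way, at 17.9 in B220+ and 6.75 in splenic Venus+ cells and not detected in marrow Venus+ cells (at least 7.62-fold lower). Ptpn2, a phosphatase of JAK and STAT proteins, was at 209 in B220+, 103 in splenic and 78.8 in marrow Venus+ cells, or 2.03-fold and 2.65-fold lower than in B220+ cells. Its spleen ratio was at the 2-fold line and was under it with the 3 SD detection limit, and with quantile normalization both ratios were under it (-0.72 in spleen and -0.82 in marrow).

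Ptpn1 encodes PTP1B, an endoplasmic reticulum phosphatase related to Ptpn2's product. It was brightest in splenic Venus+ cells, at 590.1 in B220+, 832 in splenic and 238 in marrow Venus+ cells. Against B220+ cells its log2 ratio was 0.50 ± 0.14 in spleen and -1.31 ± 0.13 in marrow Venus+ cells, so the 2 Venus+ populations lay on either side. With quantile normalization the marrow ratio was -0.90, under 2-fold. Ptpn7 was 2.40-fold higher in splenic Venus+ cells at low signals (5.37, 12.9 and 6.89 in the order B220+, spleen and marrow Venus+). Ptpn21 and Ptpn23 were 2.47-fold and 2.53-fold lower in marrow Venus+ than B220+ cells, and Ptpn4, Ptpn9 and Ptpn20 stayed within 2-fold throughout. Ptpn3, Ptpn5, Ptpn13 and Ptpn14 were not detected on any array.

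The 19 Ptpr members were mostly dim, and the bright ones were Ptprc and Ptprcap. Ptprc encodes CD45, and its signals were 1966 in B220+, 398 in splenic and 301 in marrow Venus+ cells, 4.94-fold lower in spleen (log2 ratio -2.31 ± 0.14) and 6.54-fold lower in marrow Venus+ cells (-2.71 ± 0.13). The B220+ cells were sorted by a form of this gene's own product, so gate and difference cannot be told apart, and no source used here places the probe on the transcript. Ptprcap, which encodes a small protein bound to CD45, was at 2430.2 in B220+, 1675 in splenic and 944 in marrow Venus+ cells. It differed from Ptprc in being within 2-fold between the spleen arrays (-0.54 ± 0.14) and 2.57-fold lower in marrow Venus+ cells. On the marrow array the local background of Ptprcap was 1.12 times its spot signal. With the local background entered in the correction, its spleen ratio was 0.35. Neutrophils also carry CD45 and SHP-1, and neutrophil markers were bright in B220+ cells, as given above; their part in the values of Ptprc and Ptpn6 was not tested.

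Ptprs, which encodes the receptor phosphatase PTP sigma, descended from 38.9 in B220+ through 20.3 in spleen to 5.04 in marrow Venus+ cells. Its log2 ratio to B220+ cells was -0.94 ± 0.15 in spleen and -2.95 ± 0.36 in bone marrow. The receptor phosphatases that were higher in Venus+ cells were dim ones. Ptprf (2.35, 6.86 and 9.24 in the order B220+, spleen and marrow Venus+) and Ptprr (9.996, 25.2 and 26.8) were higher in both populations, and Ptprd and Ptpru in the bone marrow one alone. Ptprb, Ptprj and Ptprk were detected in B220+ cells alone, all at 3.07 or less, and Ptprm, Ptprn2, Ptpro and Ptprq on no array. Ptprh was detected in the Venus+ populations alone (3.35 and 3.77) and Ptprg on the spleen arrays alone (4.31 and 4.26). Ptpra, Ptpre and Ptprn stayed within 2-fold in all comparisons, at signals between 45.9 and 136. With the normexp background on the spot median, the spleen ratios of Ptpn12 and Ptpn18 and the marrow ratios of Ptpn18 and Ptprs were under 2-fold, and those of Ptprc and Ptpn22 in spleen were not. With the local background entered, the spleen ratio of Ptprc was under 2-fold too (-0.92), and that of Ptpn22 was not (1.7).

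Of the 2 genes named for a SPRY domain, which are no phosphatases, Spryd3 was 2.38-fold lower in marrow Venus+ than B220+ cells and Spryd4 stayed within 2-fold. With shared probes the ratio of Spryd3 was -0.96, under 2-fold.

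**Figure D4:**
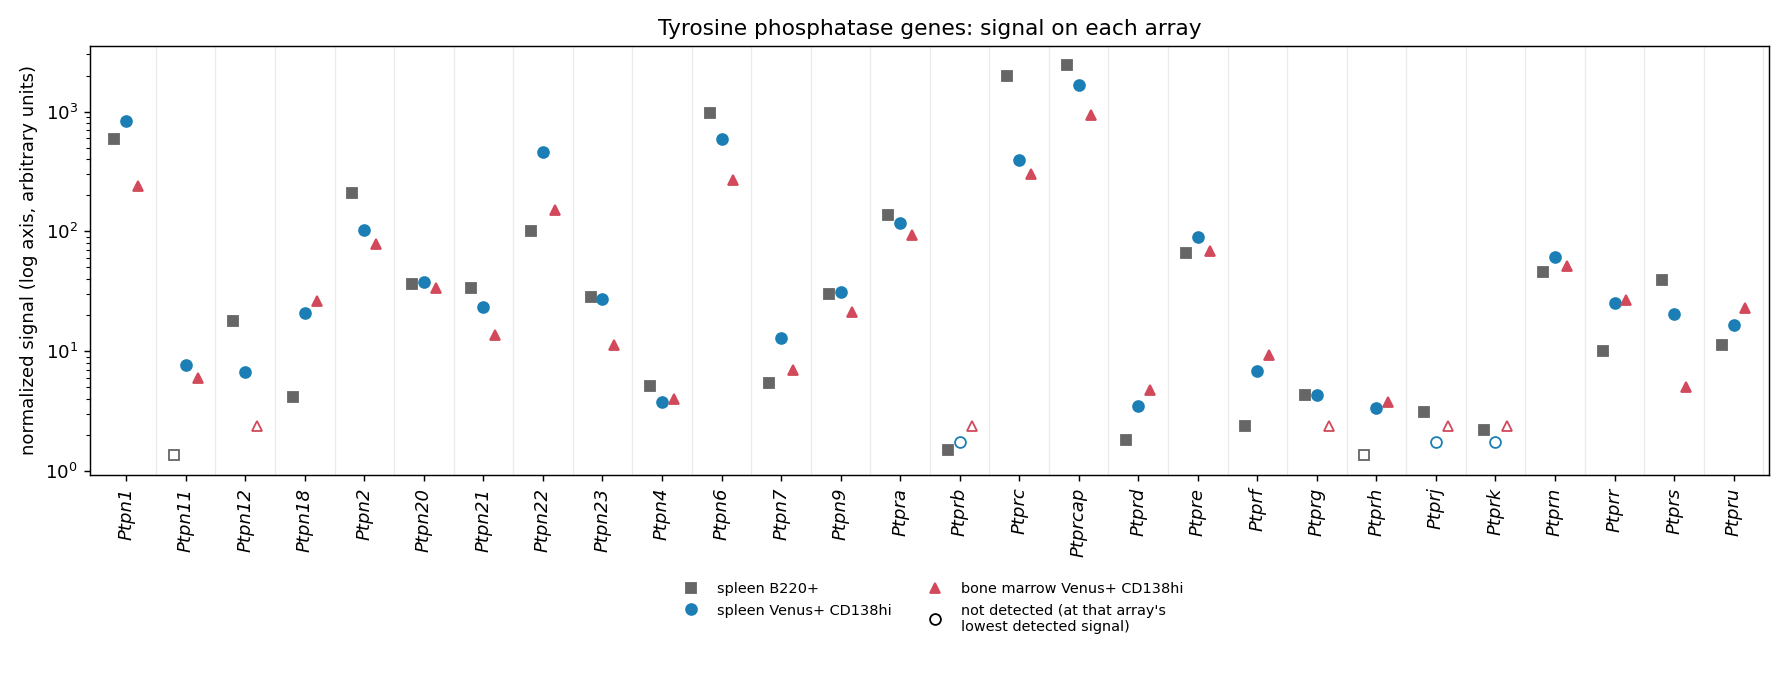
Normalized signal (log axis, arbitrary units) of tyrosine phosphatase genes on the 3 arrays, with symbols as in the plots of kinase and Dusp signals and open symbols for genes not detected. Ptprc is lower in both Venus+ populations than in B220+ cells (grey squares), Ptpn22 and Ptpn1 are highest in splenic Venus+ cells (blue circles), and Ptpn18 is high in both Venus+ populations.

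The comparison between marrow and splenic Venus+ cells asks how 2 populations under the same gate differ by organ. Of 90 members detected on both arrays, 0 were higher and 22 were lower in bone marrow (24.4%), against 4.33% of all genes higher and 15.2% lower. The member median was -0.38, or -0.21 relative to that of all genes. A further 4 members were detected only in spleen, 2 of them past the 2-fold bound (2.43% of all genes), and 0 only in bone marrow (0.588% of all genes). These counts depend on the scaling. With arrays scaled on shared probes, every log2 ratio of this comparison moves up by 0.33, 3 members were higher and 12 lower, and over all genes the higher share of calls went from 22.24% to 57.71%.

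The 12 members lower in bone marrow under both scalings came from several roles. Dusp2 (-3.66 ± 0.24, and -3.33 with shared probes), Dusp1 (-2.20 ± 0.15, and -1.87) and Dusp6 (-1.74 ± 0.18, and -1.40) were the phosphatases of MAP kinases. Mapk6 (-2.03 ± 0.19), Mapkapk3 (-1.96 ± 0.19), Mapk8 (-1.54 ± 0.53), Map3k1 (-1.42 ± 0.68) and Tab1 (-1.83 ± 0.49) were kinases or a kinase partner. Ptpn1 (-1.80 ± 0.11), Ptpn22 (-1.59 ± 0.11) and Ptprs (-2.01 ± 0.36) were tyrosine phosphatases, and Rasgrp1 (-1.81 ± 0.57) was the remaining member. Dusp10 and Ptpn12, detected in spleen only, were at least 13.2-fold and at least 2.87-fold lower in bone marrow.

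The other 10 members were lower under the authors' scaling alone, with log2 ratios from -1.29 for Map3k8 to -1.01 for Map3k3, and they include Map4k1, Map4k3, Map4k5, Mapk9 and Ptpn6. Dusp8, Dusp18 and Mapk8ip1 were the 3 members higher in bone marrow with shared probes, at 1.21, 1.02 and 1.09. Genes that kept level between the Venus+ populations under both scalings included Mapk3 (45.5 and 39.3), Map2k2 (361 and 398), Mapk12 (128 and 119) and Ptprc (398 and 301). With the normexp background on the spot median, 10 of the 16 members past 2-fold whose values are given in full were under it (Dusp6, Map3k8, Map4k3, Map4k5, Mapk6, Mapk8, Mapk9, Mapkapk3, Ptprs and Rasgrp1), and Dusp1, Dusp2, Ptpn1 and Ptpn22 were not. With the local background entered, 12 of the 16 were under 2-fold, then with Dusp1 and Dusp2 among them, and Ptpn1 and Ptpn22 were not.

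**Figure D5:**
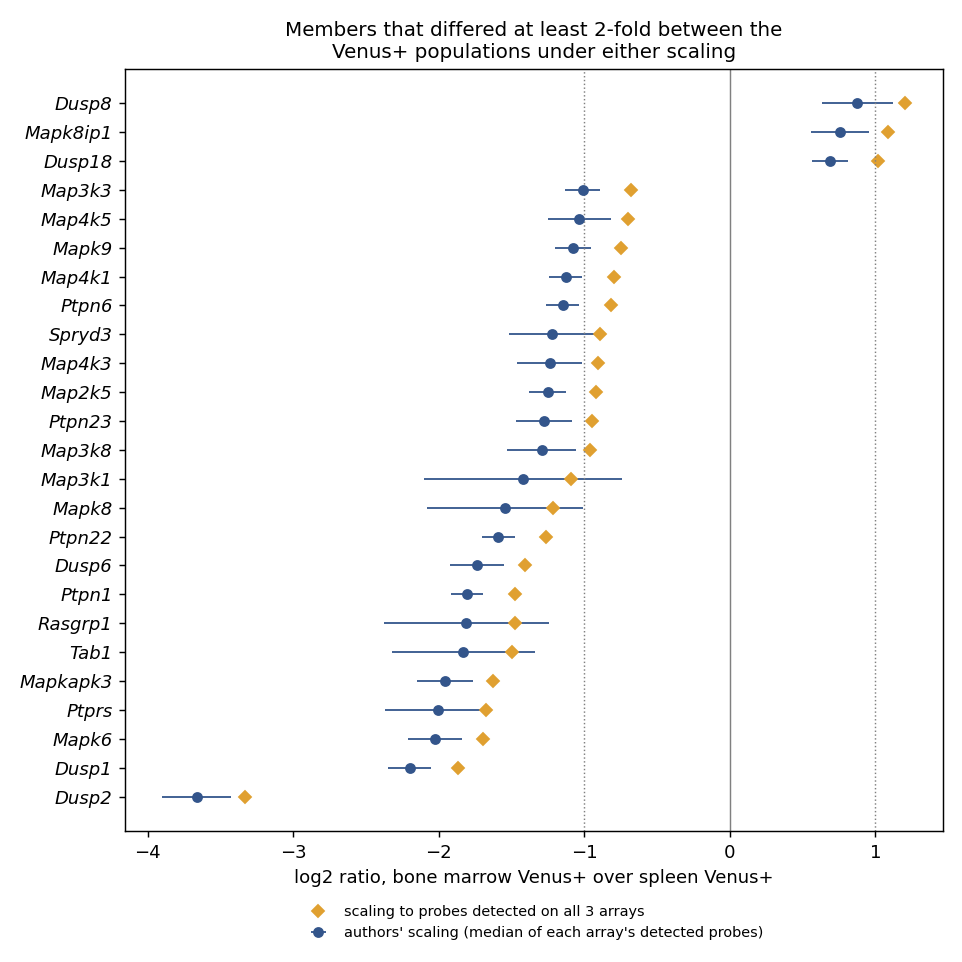
Log2 ratio of marrow over splenic Venus+ cells for members at least 2-fold apart under either scaling, with the authors' scaling in blue (bars are spot errors) and the scaling on shared probes as gold diamonds. Dusp2 lies lowest, and 10 of the blue dots left of the dotted 2-fold line have their diamond inside it.

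Genes around the members were read from lists of pathway parts. These lists also hold some members, Lamtor3 in the Ras and Raf module and Tab1 and Tab2 among the activators of p38 and JNK. In the Ras and Raf module, 1 of 24 genes was higher and 9 lower in splenic Venus+ than B220+ cells, and in marrow Venus+ cells 4 of 23 were higher and 10 lower. For this and the lists that follow, the shares over all genes were 15.7% higher and 16.5% lower in the spleen comparison and 22.4% and 30.7% in the marrow one. Those lower in spleen included the Ras gene Nras (91.2, 43.6 and 12.01 in B220+, splenic Venus+ and marrow Venus+ cells), the adaptor Grb2 (37.4, 15.1 and 4.34) and the Ras GTPase-activating genes Rasa1, Rasa2 and Rasa3. Rasal1, another GTPase-activating gene, was the 1 higher in spleen (2.48 ± 0.15). The genes lower in spleen thus included both activators and inhibitors of Ras.

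On a list of genes induced through ERK and its transcription factors, more were higher than lower in splenic Venus+ cells, though most stayed within 2-fold. Of 17 detected on both arrays, 6 were higher and 1 lower (against 15.7% and 16.5% of all genes), with a median log2 ratio of 0.68, against -0.02 for all genes. Fos led, at 7.99 in B220+, 1549 in splenic and 513 in marrow Venus+ cells. Egr1 and Egr2 followed the same order as Mapk6 and Ptpn1, brightest in splenic Venus+ cells (142, 494 and 64.9 and 14.6, 43.3 and 7.31 in the order B220+, spleen and marrow Venus+). Others did not rise in spleen: Etv4 (log2 ratio 0.07), Etv5 (-0.41) and Plaur (-0.65) were within 2-fold, and Errfi1 was the 1 lower (-2.15). The member Dusp6 was lower as well (-2.85). In marrow Venus+ cells 3 of 15 were higher and 3 lower than in B220+ cells (against 22.4% and 30.7% of all genes). Against splenic Venus+ cells 0 were higher and 6 lower (against 4.33% and 15.2% of all genes).

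Genes on the list of CD45 substrates and Src-family kinases were more often lower than higher. The list is wider than its name, as it also holds Csk, Pag1, Syk, Btk, Cd79a and Cd79b. Of 13 genes on that list, 8 were lower and 1 higher in splenic Venus+ than B220+ cells (against 16.5% and 15.7% of all genes), with a median of -1.12, and in marrow Venus+ cells 9 of 12 were lower (against 30.7% of all genes) and 0 higher. Cd79a and Cd79b, both lower, are also on the B cell marker list. The Src-family kinase gene Blk was level between the spleen arrays and dim in bone marrow (718, 982 and 48.3), while Jak1 (1465, 332 and 97.1) and Fyn (49.2, 18.5 and 5.30) descended across all 3. Receptors that recruit SHP-1 showed a like count, with 8 of 15 lower and 2 higher in splenic Venus+ cells and a median of -1.08. Cd22 (832, 119 and 37.99) and Fcrl1 (504, 54.6 and 10.4) descended over B220+, splenic Venus+ and marrow Venus+ cells, and Cd72 did so mainly in bone marrow (919, 434 and 8.17). Cd5 and Fcrl5 were the 2 that were higher in splenic Venus+ cells, Cd5 being a T cell marker as well. Cd22 and Cd72 are among the B cell markers of the opening, so this list is not separate from them.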

How the data were processed

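RNA of 3 sorted populations was labelled with Cy5 and hybridized to 1 single-colour 3D-Gene mouse array each. The deposited scanner files hold, per the file headers, the median intensity of each spot. By the series' design text, the authors took off the mean intensity of blank spots and scaled detected signals to a median of 25. Here the same steps were applied to the spot medians: the mean of the middle 90% of blank spots (2462 of 2736) was subtracted and spots above that mean plus 2 SD counted as detected. Detection then differed from the authors' deposited table for 0 probes on each array. The 23473 probes gave detected shares of 72.1% in B220+, 73.4% in splenic and 67.6% in marrow Venus+ cells, and precision is limited by the number of arrays.

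Gene symbols came from the platform annotation (16631 probes with 1 symbol, 6842 with none, 0 with several). They were updated through RefSeq names of GRCm38.p6, and a gene with several probes was read from the one brightest on average. Members were matched on the symbol as annotated, and 8 genes that match only under a current symbol were left out. A log2 ratio is the log2 of the signal on 1 array over that on another, called at 2-fold. Values on all arrays are given for members that differed at least 4-fold in any comparison and for a list of central members; other members named (such as Mapk12, Rasgrp4 and Spred3) were named after their values were seen. Members, roles and lists were chosen with earlier results of these data known.

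Scaling on probes detected on all 3 arrays stands beside the authors' scaling. It moves log2 ratios by -0.04 (splenic Venus+ over B220+), 0.29 (marrow Venus+ over B220+) and 0.33 (marrow over splenic Venus+). Other alternatives were normexp with an offset of 50, quantile normalization, a limit of 3 SD, signals of at least 10, the authors' table and the mean over probes. Python 3.11.15, numpy 2.4.6, pandas 2.3.3 and limma 3.58.1 in R 4.3.3 were used.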

Additional observations from a re-analysis of the deposited data

Results flagged for a closer look

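Mapk6 and Ptpn1 were the only members that lay above B220+ cells in one Venus+ population and below them in the other, each by more than 2 spot errors, with at least 2-fold between the Venus+ populations. The log2 ratio of Mapk6 was 1.44 in splenic and -0.58 in marrow Venus+ cells. That of Ptpn1 was 0.50 in splenic and -1.31 in marrow Venus+ cells. With arrays scaled on shared probes the marrow ratios were -0.29 and -1.02, the first then within 2 spot errors of 0, and with quantile normalization the marrow ratio of Ptpn1 was -0.90. Both ratios of a gene share the B220+ array, and with 1 array per population the difference between them was not tested.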

How the results depend on the processing

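Over 9 summary values (members higher, members lower and member median in each comparison), 47 values under alternatives stayed close to those reported, 25 moved and 0 reversed. Normexp with the local background entered gave 1 higher and 3 lower in splenic Venus+ against B220+, 0 and 8 in marrow Venus+ against B220+ (median -0.0585), and 5 lower between the Venus+ populations (median -0.0040). Normexp on the spot median alone, chosen after seeing the data, gave 3 and 11, then 2 and 17 (median -0.12), then 6 lower (median -0.10). Signals of at least 10 gave 6 higher and 15 lower (median -0.21) in the first comparison, 5 higher and 20 lower in the second and 12 lower in the third. Scaling on shared probes gave a median of -0.08 in the second, and 3 higher, 12 lower and a median of -0.051 in the third. Quantile normalization gave 10 higher and 13 lower in the first, and 3 higher with a median of -0.12 in the third. Over all genes, the higher share of calls in the spleen comparison was 48.84%, and 25.88% with normexp on the spot median and 34.21% for signals of at least 10; between the Venus+ populations it was 44.08% with quantile normalization.

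Of the named members, 486 values under alternatives stayed close, 279 moved and 7 reversed, these with the local background entered. That setting put 21 of the 25 named members past 2-fold in the spleen comparison under 2-fold. The same held for 16 of 24 in marrow Venus+ against B220+ and 12 of 16 between the Venus+ populations. The reversed log2 ratios were, in splenic Venus+ against B220+, Map2k1 0.29 and Rasgrp2 0.73; in marrow Venus+ against B220+, Mapk8 0.083 and Rasgrp2 0.79; and between the Venus+ populations, Map3k8 0.0026, Map4k3 0.11 and Mapk8 0.11. Across probes, the local background correlated with the spot (r of log2 values 0.970, 0.957 and 0.957; median ratio to the spot 0.811, 0.819 and 0.887), and its part in these reversals was not tested. No paired analysis was possible because each population has 1 array. Signals near 2 are close to the blank level, so ratios from them are loose, and no ratio here has a replicate check.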

Other observations

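Upstream activators of p38 and JNK were more often lower than higher in Venus+ cells. The members Tab1 (lower in marrow) and Tab2 (lower in both) are counted in this list. Of 23 genes of that list, 1 was higher and 9 lower in splenic Venus+ than B220+ cells, and 1 higher and 14 lower in marrow Venus+ cells, against 15.7% higher and 16.5% lower over all genes in the spleen comparison and 22.4% and 30.7% in the marrow one. Gadd45g and Gadd45a, stress-induced activators of the MAP3K tier, descended across the arrays, at 238 in B220+, 22.004 in splenic and 9.10 in marrow Venus+ cells for Gadd45g and 128, 24.96 and 9.01 in the same order for Gadd45a, while Gadd45b stayed within 2-fold (169.9, 333 and 208). Tnik, a kinase related to the MAP4K family, was the 1 gene higher, at 5.78 in B220+, 34.1 in splenic and 102 in marrow Venus+ cells, the reverse order of Map4k5.

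Of 24 targets of the MAP kinases, 5 were higher and 6 lower in splenic Venus+ than B220+ cells, against 15.7% and 16.5% of all genes. Jun, the JNK target, was at 48.1 in B220+, 905 in splenic and 431 in marrow Venus+ cells, and Hspb1, the heat shock protein phosphorylated below Mapkapk2, was at 21.03 in B220+, 212 in splenic and 157 in marrow Venus+ cells. Both were higher in the Venus+ populations, in which the JNK genes Mapk8 and Mapk9 were lower. Rps6ka5, which encodes the histone kinase MSK1, was at 72.9 in B220+ and 8.40 in splenic Venus+ cells and was not detected in marrow Venus+ cells, and Srf, the partner of the Elk factors, descended across the arrays (102, 38.6 and 11.2).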
